A study of Cucumis sativus with 6 samples.

Results

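The genes described are 3 of the 1589 genes in a deposited list of genes that differ between Cshec2 mutant and wild type cucumber (Cucumis sativus). They are Csa5G644580, described as cytokinin hydroxylase, and Csa6G358680 and Csa6G141420, both described as LOG-type phosphoribohydrolases. They were taken by identifier, because their protein descriptions name cytokinin. RNA was sequenced from female flower buds collected 7 days before anthesis, the opening of the flower, with 3 Cshec2-/- libraries and 3 wild type (WT) libraries, which the design text calls biological replicates. CsHEC2 is a basic helix-loop-helix gene, and the series title links it to fruit warts, to CsGL3 and CsTu, and to cytokinin biosynthesis. How the mutant allele was made, the inbred line behind each genotype and whether a library holds 1 bud or a pool are not stated in the material used here.

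Cytokinins are plant hormones made from adenine that drive cell division, and cucumber warts form where cells beneath a fruit spine keep dividing. The pathway starts when an isopentenyltransferase joins a side chain to an adenine nucleotide. In Arabidopsis, cytokinin hydroxylase, a cytochrome P450 of the CYP735A type, then hydroxylates that side chain, which turns isopentenyladenine nucleotides into zeatin nucleotides. LOG enzymes, named after the LONELY GUY gene of rice, remove ribose phosphate from these nucleotides and so release the free base that receptors bind. The hydroxylase thus sets the kind of cytokinin made, and LOG enzymes carry out its last activation step.

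All 3 genes were lower in mutant buds than in WT buds, and in each of them every mutant library lay below every WT library. The mean of the mutant libraries was 0.218 times the WT mean for the hydroxylase gene, 0.316 times for the LOG5-like gene Csa6G358680 and 0.230 times for the LOG1-like gene Csa6G141420. The 3 genes passed limma, a linear model fitted over all 1589 genes on log2(value + 1), at a Benjamini-Hochberg adjusted p of 0.05. That count, 3 of 3 lower, stands in a list made of genes already selected as differing: 74.3% of all listed genes were called lower by the same rule. Likewise, the mutant values lay wholly below the WT values for 75.7% of listed genes, so the separation of the groups is common in this list. Neither result held after the libraries were rescaled so that the typical listed gene was equal in all (median-of-ratios scaling): 0 of the 3 genes then passed, with adjusted p of 0.166, 0.257 and 0.243, and the groups overlapped for all 3. Values are the authors' normalised expression, whose unit the header does not name, and read depth is unknown.

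**Figure D1:**
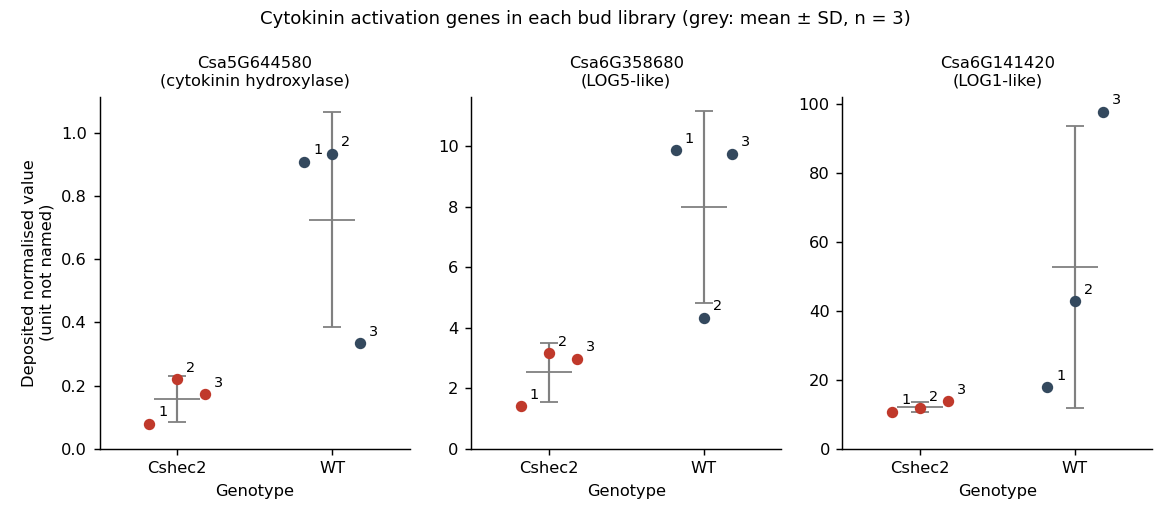
The deposited normalised value (unit not named) of each gene is plotted for each library, with mutant libraries left and WT libraries right, numbers giving the replicate and grey bars the mean ± SD of 3 libraries. In each panel the 3 mutant points lie below the 3 WT points, and the WT library that comes closest to them is number 3, 2 and 1 from left to right.

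Csa5G644580, the hydroxylase gene, measured 0.0798, 0.221 and 0.173 in mutant libraries 1 to 3, against 0.909, 0.935 and 0.334 in WT libraries 1 to 3. WT libraries 1 and 2 were close to each other, and WT library 3 lay nearest to the mutant, 1.51-fold above the highest mutant value. The means were 0.158 ± 0.0718 in the mutant and 0.726 ± 0.34 in WT (SD, n = 3 each, here and below). Its log2 change was -0.56 (SE 0.16, 95% interval -0.93 to -0.18, limma adjusted p = 0.0151). Without mutant library 1 the adjusted p was 0.0516, and over all alternatives run it ranged from 0.00175 to 0.166.

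The gene sits near the bottom of the expression range, with the 49th lowest WT mean of the 1589 genes. At such values the constant added before taking logs sets much of the log2 change. It was -0.86 with 0.5 added and -1.62 with 0.1 added, in place of -0.56 with 1 added, and all 3 fits passed. The log2 ratio of the deposited means was -2.20, the 235th lowest in the list. The authors' deposited table marks it as down, as it does 81.6% of its genes, but gives it neither an FDR nor a fold change, the 1 such case, and places it on the last of 1589 rows.

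Among the 40 listed genes with a cytochrome P450 domain, 26 were called lower, 11 higher and 3 did not pass. Of these 40, 4 were lower and 11 higher after median-of-ratios scaling. Over all 1589 listed genes 74.3% were called lower and 293 genes higher, and after that scaling 14.2% lower and 293 genes higher. Within the 40 the hydroxylase gene had the 4th lowest WT mean and the 6th lowest ratio of the mutant mean to the WT mean.

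Csa6G358680, the LOG5-like gene, measured 1.41, 3.17 and 2.98 in mutant libraries 1 to 3, against 9.87, 4.33 and 9.75 in WT libraries 1 to 3. Mutant library 1 was the lowest of all, and WT library 2 lay 1.37-fold above the highest mutant value while the other WT libraries nearly coincided. The means were 2.52 ± 0.963 in the mutant and 7.98 ± 3.16 in WT. Its log2 change was -1.32 (SE 0.35, 95% interval -2.16 to -0.48, limma adjusted p = 0.0128). This is the 1 gene of the 3 that kept an adjusted p under 0.05 whichever library was left out, with a highest value of 0.0438, and over all alternatives the adjusted p ranged from 0.0094 to 0.257. The authors' deposited table gives it a log2 fold change of -1.21 and an FDR of 0.000532.

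Csa6G141420, the LOG1-like gene, measured 10.8, 11.8 and 13.8 in mutant libraries 1 to 3, against 17.9, 42.7 and 97.7 in WT libraries 1 to 3. The mutant libraries differed less than the WT libraries. WT library 3 was 5.44-fold above WT library 1, which itself lay 1.3-fold above the highest mutant value. The means were 12.1 ± 1.56 in the mutant and 52.8 ± 40.8 in WT, a coefficient of variation of 12.8% in the mutant and 77.3% in WT. The list medians of that coefficient were 12.6% and 24.7%. Its log2 change was -1.73 (SE 0.55, 95% interval -3.03 to -0.43, limma adjusted p = 0.0215).

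On the log2(value + 1) scale with all 6 libraries this was the largest log2 change of the 3 genes and the widest interval. By the log2 ratio of means the hydroxylase was lower (-2.20 against -2.12), and without WT library 3 the LOG5-like gene was (-1.15 against -1.14). The adjusted p was 0.064 without mutant library 1, 0.0574 without mutant library 2 and 0.0584 without WT library 2, and it ranged from 0.00133 to 0.243 over all alternatives. Without WT library 3 the log2 change was -1.14 (adjusted p = 0.0227), and without WT library 1 it was -2.33 (adjusted p = 0.00133). For this gene the authors' deposited table has an FDR of 0.0115 and a log2 fold change of -1.02, against a log2 ratio of the deposited means of -2.12. A ratio of means larger in size than the authors' fold change was found for 1421 of the 1586 genes for which both could be computed, with a median gap of 0.13 on the log2 scale.

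With 3 libraries per genotype an exact two-sided permutation test cannot give less than p = 0.1, and it gave 0.1 for each of the 3 genes. The 2 LOG-type genes are the only listed genes with the domain that the table calls possible lysine decarboxylase, the name under which LOG proteins are filed. Whether the authors' counting shared reads among LOG-type genes is not known, so the separate values of these 2 genes are uncertain to that extent. The buds are bulk tissue, in which fewer cells of a type and less RNA per cell cannot be told apart.

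The 3 genes did not share one pattern among the WT libraries. Relative to the mutant mean, WT libraries 1, 2 and 3 were 5.76, 5.92 and 2.11-fold higher for the hydroxylase gene. The same ratios were 3.92, 1.72 and 3.87 for the LOG5-like gene and 1.48, 3.52 and 8.05 for the LOG1-like gene. Each WT library was therefore the lowest of its genotype for a different gene of the 3, and each was the highest for a different one. The hydroxylase and the LOG1-like gene were both higher in WT library 2 than in WT library 1, the hydroxylase only slightly. Between WT libraries 1 and 3 they ran in opposite directions. WT library 3 was at 0.367 times WT library 1 for the hydroxylase and 5.44 times for the LOG1-like gene. The median of that ratio over the list was 1.09. Among mutant libraries, number 1 was the lowest for all 3 genes; it was the lowest mutant library for 646 of the 1589 listed genes.

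The order of the WT libraries seen for the LOG1-like gene, library 1 lowest and library 3 highest, was that of 542 listed genes. The order of the LOG5-like gene was shared by 273 genes and that of the hydroxylase by 99, each count including the gene itself. The SD over WT libraries on the log2(value + 1) scale was 0.30 for the hydroxylase, 0.59 for the LOG5-like gene and 1.19 for the LOG1-like gene, against a list median of 0.28. The last of these was the 50th largest of 1589. Over mutant libraries the SD was 0.09, 0.44 and 0.17 for the same genes in that order, against a list median of 0.13, and that of the LOG5-like gene was the 56th largest. At the low values of the hydroxylase the added 1 shrinks its SD. The coefficient of variation of the hydroxylase was 45.5% in the mutant and 46.8% in WT, against list medians of 12.6% and 24.7%.

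**Figure D2:**
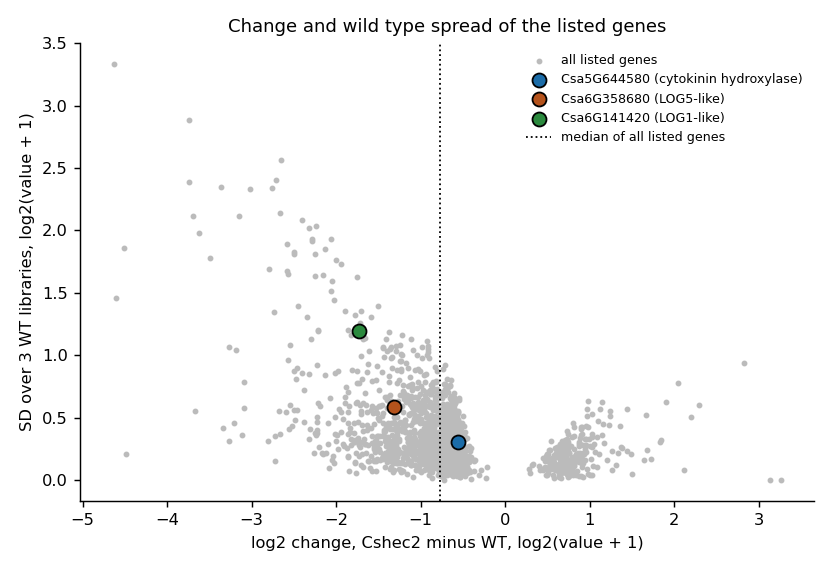
Each listed gene is placed by its log2 change (mutant minus WT, horizontal axis) and by the SD of its 3 WT libraries (vertical axis), both on the log2(value + 1) scale, with the dotted line at the median change of -0.77. The LOG1-like gene lies among genes with a large change and a large WT spread (-1.73 and 1.19), and the hydroxylase lies to the right of the median line (-0.56 and 0.30).

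The list is lopsided, with values that summed to 23592 to 24173 in mutant libraries and 41126 to 59342 in WT libraries, and a median log2 change of -0.77. Relative to that median, the log2 change was -0.96 for the LOG1-like gene, -0.55 for the LOG5-like gene and 0.21 for the hydroxylase. For the hydroxylase the sign of this difference turned with the added constant, to -0.68 with 0.1 added. When libraries were rescaled by the median of ratios, the median change moved by 0.74, and 14.2% of genes were called lower, among them 0 of the 3 genes. Of the calls made after that scaling 43.4% were lower, against 80.1% without it. Scaled mutant and WT values overlapped for all 3 genes. The lowest scaled WT value was 0.696 times the highest mutant value for the hydroxylase, 0.753 times for the LOG5-like gene and 0.746 times for the LOG1-like gene.

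The scaled log2 changes were -0.33 for the hydroxylase, -0.58 for the LOG5-like gene and -0.84 for the LOG1-like gene, and none of them passed. Such scaling assumes that most genes do not differ, which a list chosen for differing does not meet, so the loss of these calls does not show that the genes were alike in both genotypes.

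**Figure D3:**
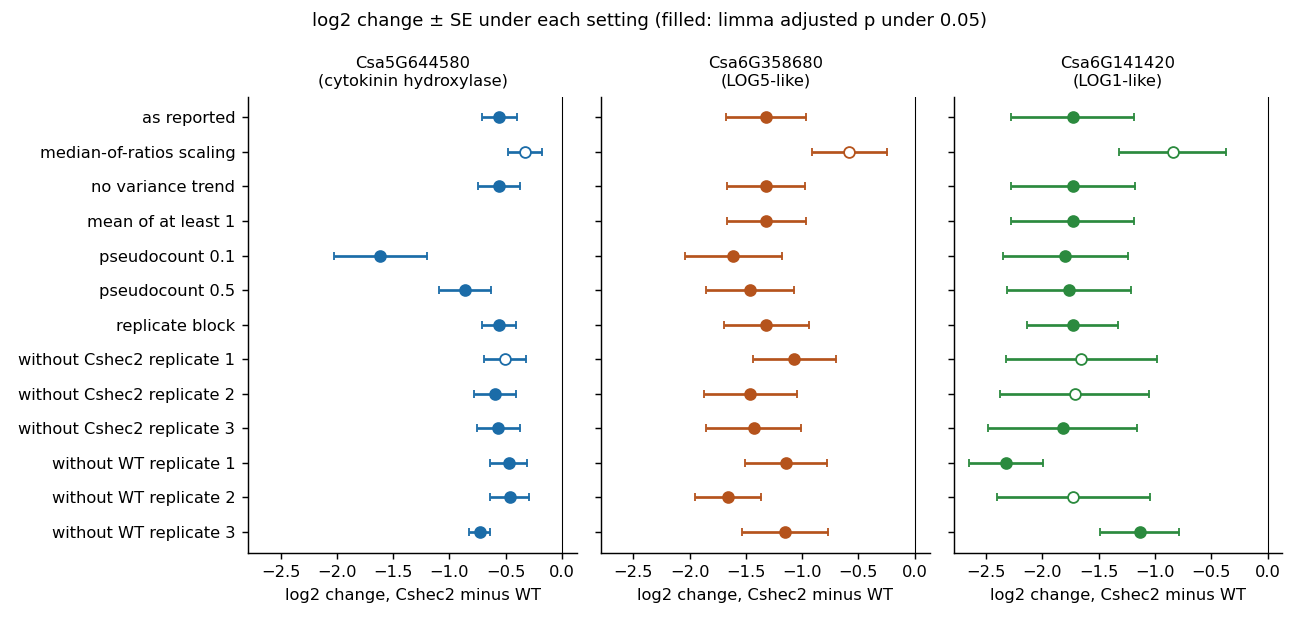
The log2 change (mutant minus WT, ± SE) of each gene is drawn for the reported fit and each alternative, with filled points for a limma adjusted p under 0.05 and open points above it. The change is below 0 in every setting drawn; the open points are median-of-ratios scaling in all 3 panels, mutant library 1 left out for the hydroxylase, and mutant library 1, mutant library 2 or WT library 2 left out for the LOG1-like gene.

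Few other cytokinin genes were in the list. A keyword search of the descriptions for synthesis and activation genes returned the same 3 genes and no isopentenyltransferase. It returned 0 genes for cytokinin removal (cytokinin dehydrogenase and zeatin or cytokinin glucosyltransferases) and 0 for perception and response (histidine kinases, phosphotransfer proteins and response regulators). Since the list holds selected genes only, genes outside it were not analysed here. Transport and salvage gave 1 gene, Csa2G369740, described as purine permease 3, of a family whose Arabidopsis members move purines and in some cases cytokinins. It measured 3.62, 3.80 and 3.87 in the mutant libraries, against 9.29, 9.07 and 6.16 in the WT libraries, and the groups did not overlap. The log2 change was -0.93 (SE 0.19, limma adjusted p = 0.00584). With median-of-ratios scaling it was -0.15 and did not pass, and the adjusted p ranged from 0.00167 to 0.684 over all alternatives.

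Likeness between genes was measured as the mean, over the 6 libraries, of the absolute difference between log2(value + 0.1) profiles centred on their own means; smaller is more alike. The hydroxylase and the LOG5-like gene differed by 0.479, the hydroxylase and the LOG1-like gene by 0.784, and the LOG5-like and LOG1-like genes by 0.755. For the LOG1-like gene the median difference from the 1588 other genes was 0.730, so neither of the other two was nearer to it than a typical listed gene. Seen from the hydroxylase, the LOG5-like gene was the 309th nearest of the 1588. The mutant values of the hydroxylase, 0.0798, 0.221 and 0.173, are close in size to the added 0.1. Its differences and nearest genes can thus depend on that constant, and no other was tried for likeness.

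The described gene nearest to the hydroxylase was Csa6G013950, described as LOB domain-containing protein 13, of a plant transcription factor family named for organ boundaries (difference 0.119). It measured 0.333, 0.491 and 0.539 in the mutant, against 2.15, 2.11 and 1.01 in WT. Next came Csa5G199280 (0.147), described as aquaporin PIP1-4, a water channel, and Csa3G182040, described as the MYB factor LAF1 (0.177). They were followed by Csa5G199270 (0.185), also described as aquaporin PIP1-4. How reads were divided between the 2 alike aquaporin genes is not known. Csa5G199280 measured 6.44, 8.26 and 7.13 in the mutant, against 28.7, 23.6 and 12.1 in WT. Csa2G416240, described as cellulose synthase-like protein H1 (0.191), completed the 5. These genes were chosen for their profile over the same 6 libraries, so the order of libraries and the direction they share with the hydroxylase follow from that choice, here and for the other neighbours below. In all 5 genes WT library 3 was the lowest WT library and mutant library 1 the lowest mutant library, and all 5 were called lower.

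The gene nearest to the LOG5-like gene was Csa2G000510, described as tetraspanin-2, a membrane protein (0.184). It measured 0.275, 0.574 and 0.616 in the mutant, against 1.91, 1.02 and 1.51 in WT. Csa5G100000, described as glutamate decarboxylase 4, which makes gamma-aminobutyric acid, was almost as near (0.186). It measured 1.32, 2.58 and 2.26 in the mutant, against 6.48, 4.16 and 6.56 in WT. The others were Csa3G900960, described as a xyloglucan endotransglucosylase that cuts and rejoins wall polymers (0.232), Csa6G338090, described as the Dof factor DOF1.2 (0.234), and Csa3G416660, described as taxadiene 5-alpha hydroxylase (0.241). WT library 2 was the lowest WT library in all 5, and all 5 were called lower. The DOF1.2-like call was lost in 5 of the 6 fits that left out a library.

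The LOG1-like gene had the closest neighbours of the 3. The nearest was Csa3G792070, described as the F-box/kelch-repeat protein At1g15670 (0.102), which in Arabidopsis belongs to the KISS ME DEADLY group that marks type-B cytokinin response regulators for breakdown. It measured 9.35, 9.07 and 10.3 in the mutant, against 14.8, 41.0 and 76.8 in WT. The change of -1.82 on the log2 scale passed (limma adjusted p = 0.0166); the adjusted p was 0.0522 without WT library 2 and between 0.000567 and 0.184 over all alternatives. The others were Csa7G073490, described as scopoletin glucosyltransferase (0.150), Csa1G008470, described as NUCLEAR FUSION DEFECTIVE 4 (0.152), Csa1G420310, described as CONSTANS-LIKE 5 (0.153), and Csa1G532340, described as potassium transporter 1 (0.157). Csa1G420310 measured 10.9, 13.0 and 10.1 in the mutant, against 15.4, 42.0 and 92.0 in WT. WT library 3 was the highest and WT library 1 the lowest WT library in all 5, and 4 of the 5 were called lower. The exception was Csa1G008470, with overlapping groups and a limma adjusted p of 0.0522. Of the 6 fits that left out a library, Csa7G073490 passed in 3, and Csa1G420310 and Csa1G532340 in 2 each. After median-of-ratios scaling all 15 nearest genes of the 3 cytokinin genes still had a log2 change below 0, and 0 passed.

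**Figure D4:**
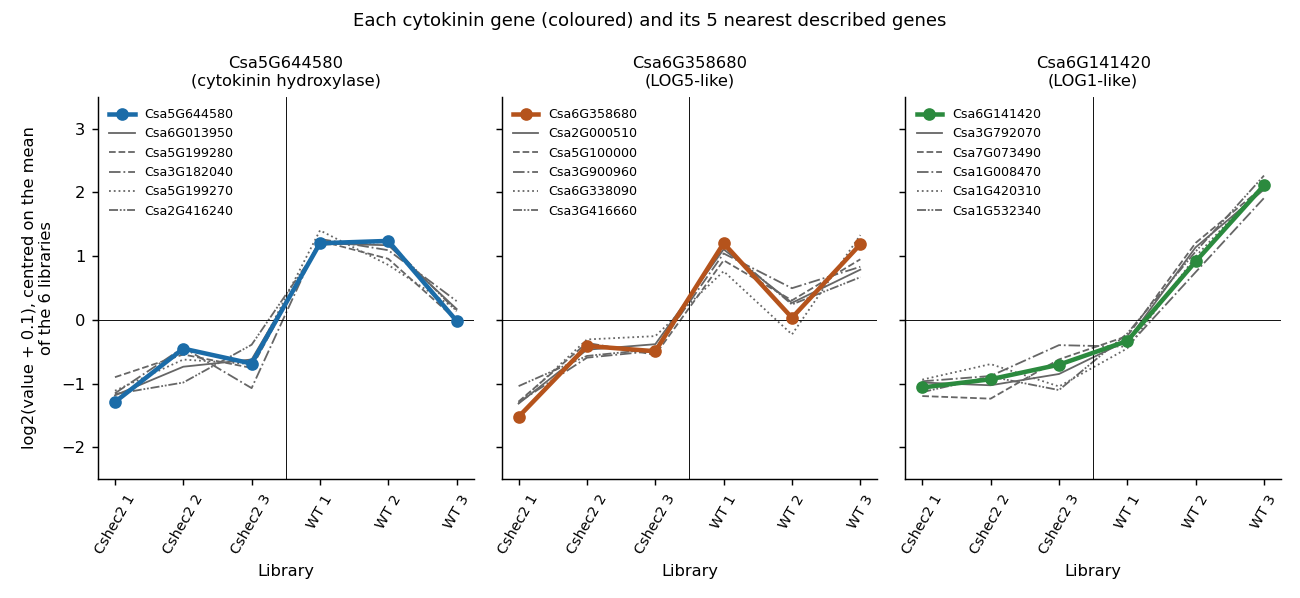
Each panel plots log2(value + 0.1), centred on the mean of the 6 libraries, for 1 cytokinin gene (coloured) and the 5 described genes nearest to it (grey), with mutant libraries left of the vertical line and WT libraries right. The coloured lines differ over the WT libraries: WT library 3 is lowest for the hydroxylase, WT library 2 for the LOG5-like gene and WT library 1 for the LOG1-like gene.

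After these values were seen, the list was searched for further genes of the KISS ME DEADLY group and for purine carriers under other names. Csa4G280500, described as the F-box/kelch-repeat protein At2g44130 of the same Arabidopsis group, measured 20.4, 21.2 and 21.4 in the mutant, against 25.1, 71.4 and 92.5 in WT. It changed by -1.35 on the log2 scale (SE 0.45, limma adjusted p = 0.0249), and of the 6 fits that left out a library only the one without WT library 1 kept an adjusted p under 0.05. After median-of-ratios scaling it was -0.45 and did not pass (adjusted p = 0.452, with a range of 0.00029 to 0.452 over all alternatives). Csa6G014490, described as the adenine/guanine permease AZG1, measured 0.256, 0.401 and 0.494 in the mutant, against 0.95, 2.11 and 3.73 in WT. It changed by -1.15 on the log2 scale (SE 0.30, limma adjusted p = 0.0122). After that scaling it was -0.71 and did not pass (adjusted p = 0.0607, with a range of 0.00116 to 0.0607 over all alternatives). In both genes WT library 3 was the highest and WT library 1 the lowest WT library, an order that 34.1% of all listed genes had.

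Cell division is the process that cytokinin promotes, and the keyword list for it held 4 listed genes, of which 3 were called lower and 1 higher. Their median log2 change was -0.64, against -0.77 over all listed genes, of which 74.3% were called lower. The 2 genes described as cyclin-U4-1 moved apart. Csa6G078670 averaged 35.5 ± 3.73 in the mutant and 22.0 ± 4.14 in WT, and Csa3G127030 averaged 7.74 ± 0.814 in the mutant and 19.2 ± 8.87 in WT. The other 2, Csa7G073750 (KRP7) and Csa3G734160 (SMR4), are described as inhibitors of cyclin-dependent kinases, which hold division back. Csa7G073750 averaged 2.26 ± 0.14 in the mutant and 4.18 ± 1.32 in WT, and Csa3G734160 averaged 8.32 ± 1.96 in the mutant and 13.4 ± 2.40 in WT. After median-of-ratios scaling Csa6G078670 was still called higher (log2 change 1.57), Csa3G127030 was at -0.26, and both inhibitor genes turned to 0.06 and 0.21, none of these 3 passing.

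Over the whole list 74.3% of genes were called lower and 293 of 1589 higher. Of 3 listed trichome and wart regulators found by keyword, 2 were called lower and 1 higher. The higher one was Csa3G484840, described as GLABRA 2, a homeodomain factor of epidermal cell fate in Arabidopsis. It measured 1.56, 2.32 and 1.51 in the mutant, against 0.391, 0.605 and 0.76 in WT. The difference was 0.81 on the log2 scale (SE 0.16, limma adjusted p = 0.00482). Its WT mean was the 37th lowest of the 1589, so the constant added before taking logs sets much of this value. The log2 ratio of its deposited means was 1.62. The lower ones, Csa3G748220, described as ATHB-51, and Csa3G824850, described as MYB106, had log2 changes of -1.08 and -1.91. Median-of-ratios scaling gave 1.28 for Csa3G484840 and -1.14 for Csa3G824850, which still passed, and -0.23 for Csa3G748220, which did not. The coefficient of variation over WT libraries was 13.2% for Csa3G748220, 20.7% for Csa3G824850 and 31.6% for Csa3G484840, against a list median of 24.7%. It was 46.8% for the hydroxylase, 39.6% for the LOG5-like gene and 77.3% for the LOG1-like gene.

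Listed genes found by keywords for other tissues a bud sample could hold differ between the genotypes by the choice of the list. In that list 74.3% of all genes were called lower, and the part of these keyword genes in the results was not tested. After median-of-ratios scaling 0 of these genes were called lower and 3 phloem genes were still higher, and the log2 change was then below 0 in 1 of 3 green tissue genes, 1 of 7 phloem genes and 1 of 2 ovule and seed genes. All 3 green tissue genes were lower, with summed values of 109 to 125 in mutant libraries and 165 to 213 in WT libraries. Of 7 phloem genes 3 were higher, 3 lower and 1 did not pass, with sums of 122 to 129 in the mutant and 145 to 234 in WT, highest in WT library 3. The largest parts of these sums came from Csa7G056500 (means 64.4 in the mutant and 105 in WT) and Csa1G542510 (29.0 and 48.6), both described as lectin. The 3 higher genes are all described as SIEVE ELEMENT OCCLUSION B, so the sums do not stand for every phloem gene. Both genes found by the ovule and seed keywords were lower, with sums of 26.5 to 28.4 in the mutant and 38.1 to 48.6 in WT. Most of these sums came from Csa4G004950, described as embryo-specific protein ATS3B (means 26.3 and 39.1). The other, Csa7G433250, is described as late embryogenesis abundant protein 2 (means 1.09 and 2.68), and whether it marks such tissue here was not tested. No listed gene (0) was described as a pollen or anther gene.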

How the data were processed

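RNA-seq values of 3 Cshec2-/- and 3 wild type female bud libraries were taken from 1 table, which per the file headers lists genes differing between the genotypes. Its deposited values for each library are a normalised signal without a named unit. The deposited FDR column is the authors' adjusted p-value and the log2FC column their log2 fold change. HISAT2, HISAT and DESeq2 are named without version or role, per the submitters' processing notes, and the genome build is not given in the sources used here. Libraries were made from Trizol-extracted total RNA, per the labels' protocols.

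All 1589 genes entered 1 fit of mutant against WT on log2(value + 1) with a variance trend and no filter, in limma 3.58.1 (R 4.3.3). Benjamini-Hochberg adjustment ran over the whole table (threshold 0.05). The fit was also run on simulated data in which most genes did not change, unlike this list, so that run does not vouch for the calls here. These fold changes understate the change of low genes, and adjusted p-values over selected genes are smaller than over a transcriptome. Exact permutation tests used scipy 1.17.1, and figures matplotlib 3.10.9.

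Named were the 3 genes, the genes of keyword lists for the cytokinin pathway, and for each of the 3 genes the 5 nearest described genes, meaning genes with a Swiss-Prot entry or an informative NR entry. The members and lists were chosen with earlier results of these data known. Alternatives were median-of-ratios scaling, no trend, a replicate block, pseudocounts of 0.1 and 0.5, genes with a mean of at least 1 only, and each library left out. The RefSeq gene table holds 0 of the identifiers, so neither positions nor sequences are printed.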

Additional observations from a re-analysis of the deposited data

How the results depend on the processing

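Directions of the 3 genes held in all alternatives run. Median-of-ratios scaling left 518 genes past the threshold, 225 of them lower, against 1473 and 1180 as reported; 0 of the 3 genes and 0 of the 4 cytokinin pathway genes passed, with log2 changes of -0.33 (Csa5G644580), -0.58 (Csa6G358680) and -0.84 (Csa6G141420). With each library left out, 1 to 3 of the 3 genes and 2 to 4 of the 4 passed. The log2 changes then lay between -0.73 and -0.46 for Csa5G644580, -1.66 and -1.07 for Csa6G358680, and -2.33 and -1.14 for Csa6G141420. The low counts, 1 and 2, came without mutant library 1, where 860 of the 1589 listed genes were called lower, against 1180 as reported. The cause was not tested.

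Whether replicate numbers pair the libraries is not stated in the material used here. Deviations of same-numbered libraries correlated at -0.09, -0.04 and -0.18 over the listed genes, which cannot settle that question. With the replicate number as a block, 1392 genes passed and all 3 genes did, with log2 changes of -0.56, -1.32 and -1.73. A mean of at least 1 removed Csa5G644580, which then had no value, and the LOG-type genes passed. Depth is unknown, so counting error at the low values of Csa5G644580 could not be given.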
